A study of Homo sapiens with 18 samples.

Results

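The response of 2 human breast cancer cell lines to 3 days of G0S2 induction was compared gene by gene. For each gene, the day 3 change of T47D (mean log2 CPM at day 3 minus control) was set against the same change of MDA-MB-231, and the quantity described is the first minus the second, called the line difference here. It could be formed for the 12666 genes listed for both lines, of 16410 genes listed for either. By the labels, T47D is positive and MDA-MB-231 negative for the estrogen receptor, and all libraries come from cells in which G0S2 overexpression can be induced. The design text of the series speaks instead of parental and Aza resistant lines, and the sample labels were followed here. Each line gave 3 control libraries without doxycycline (day 0) and 3 libraries after 3 days of doxycycline, with 0.5 ug/ml doxycycline in the growth protocol. A further 3 libraries a line after 15 days entered the fit for the spread and are given beside some results. No group that received doxycycline but lacked the introduced gene was analysed here. Nor was there a group without doxycycline at day 3. In either line, G0S2, doxycycline, the construct and time in culture since day 0 therefore cannot be told apart. Whether a line is 1 clone or a pool, and whether the 3 libraries of a group are separate cultures, is not stated in the labels. The p-values then measure only how these libraries vary, which may be technical variation.

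G0S2 encodes a small protein best known for inhibiting the triglyceride lipase PNPLA2. Interferon-stimulated genes are a set of antiviral genes that a cell transcribes after interferon receptors signal to the nucleus through IRF9 and its partners, or after sensors of cytosolic RNA such as those encoded by DDX58 (RIG-I) and IFIH1 (MDA5) signal through IRF3 and IRF7. Genes of cholesterol and fatty acid synthesis are switched on together by the SREBP transcription factors when sterols in the endoplasmic reticulum run low. The estrogen receptor, present in T47D, drives many luminal breast genes.

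The 12 control and day 3 libraries held between 40123505 and 52380759 reads each, recovered from the deposited values. The lines matched their labels: all 10 T47D identity genes were listed for T47D, while ESR1, PGR, FOXA1 and TFF3 were not listed for MDA-MB-231, and of 10 MDA-MB-231 identity genes VIM, AXL, CAV1, ZEB1, MSN, FOSL1, PLAU and TGFBI were not listed for T47D. Replicate 2 of T47D at day 15, a library outside the line difference, stood apart: a chi-square of its reads against the other libraries of its group was 14.5 and 23.6 per degree of freedom, against 1.74 to 5.92 for every other pair of libraries within a group. It widens the spread in the fit over all 18 libraries, so counts are also given for a fit over the 12 control and day 3 libraries alone. The tables of the lines were normalized separately, which cancels out of each line's own change but not out of levels set across lines. CPM values below include the pseudocount of 3 reads that the deposited values hold, and folds of genes with few reads are understated for that reason. Control and day 3 libraries did not overlap in 22.6% of all genes in T47D and in 20.5% in MDA-MB-231. Groups said below to be separate without a call are therefore described only, and show no change by themselves.

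More genes rose in T47D than in MDA-MB-231, and by more, whereas the count of falls in each line depended on the fit. In the fit over 18 libraries, where both lines share 1 estimate of the spread (limma, Benjamini-Hochberg adjusted p under 0.05 over the 12666 genes), G0S2 and 230 further genes rose in T47D (1.82%) and 199 fell (1.57%), against 54 that rose (0.426%) and 32 that fell (0.253%) in MDA-MB-231. With each line fitted alone on the same genes, 156 rose and 75 fell in T47D, against 109 and 85 in MDA-MB-231, so there the falls were more numerous in MDA-MB-231. The median called rise was 0.52 on the log2 scale in T47D and 0.25 in MDA-MB-231, or 0.93 and 0.17 with the lines fitted alone. The median called fall was -0.17 in T47D and -0.23 in MDA-MB-231, and -0.20 and -0.16 with the lines fitted alone. More than a 2-fold change was reached by 73 of the rises and 1 of the falls in T47D, but by 1 rise in MDA-MB-231, G0S2 itself. The line difference was called for 178 genes in the direction of T47D (1.41%) and for 133 in the direction of MDA-MB-231 (1.05%). The median of the former was 0.76 on the log2 scale and that of the latter -0.23. In 116 of the 133, the change was below 0 in T47D and above 0 in MDA-MB-231.

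Genes were sorted by their calls. A gene is named T47D-specific or MDA-MB-231-specific here where it was called in that line, not in the other, and the line difference was itself called. There were 216 T47D-specific genes (145 higher, 71 lower) and 39 MDA-MB-231-specific genes (24 higher, 15 lower). Both lines moved the same way in 7 genes and opposite ways in 1. Another 206 genes were called in T47D and 39 in MDA-MB-231 without a called line difference, so for those no difference between lines is shown, and 53 had a called line difference with neither line called. Of the T47D-specific genes, 42 had an unadjusted p under 0.05 in MDA-MB-231, and of the MDA-MB-231-specific genes 13 had one in T47D. Across genes, which are not replicates, the 2 changes had a Pearson correlation of 0.05 and a Spearman correlation of 0.03 without G0S2 (12665 genes), and 51.0% had the same sign.

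Counts depended on the spread that the fit assumed. Leaving out 1 library at a time gave 182 to 316 rises and 101 to 349 falls in T47D, both lowest without T47D control replicate 2, and 24 to 121 rises and 15 to 85 falls in MDA-MB-231, lowest without MDA-MB-231 control replicate 2 and without MDA-MB-231 day 3 replicate 1. The highest value of each count came without T47D day 15 replicate 2. Rises were more numerous in T47D, with a higher median, in each of the 26 alternatives. In the fit over the 12 control and day 3 libraries, 291 genes had a called line difference above 0 and 349 below, 26 moved the same way in both lines, 25 opposite ways, 377 were T47D-specific (189 higher, 188 lower) and 114 MDA-MB-231-specific (68 higher, 46 lower). All 311 line differences called over 18 libraries were among those called over 12. Leaving out replicate 2 of T47D day 15 alone gave 229 and 256 line differences, 21 shared, 12 opposite, 314 T47D-specific and 75 MDA-MB-231-specific genes, and leaving out replicate 3 of that group gave 13 shared and 6 opposite genes. The count of line differences below 0 dropped from 133 to 78 without MDA-MB-231 day 3 replicate 2, to 86 without replicate 3 of that group or without MDA-MB-231 control replicate 1, to 83 and 85 without T47D control replicates 1 and 2, and to 87 without T47D day 3 replicate 3. MDA-MB-231-specific genes numbered 25 without MDA-MB-231 day 3 replicate 1 or 3. Shared genes numbered 4 without T47D control replicate 2 or without any 1 of the T47D day 3 libraries.

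**Figure D1:**
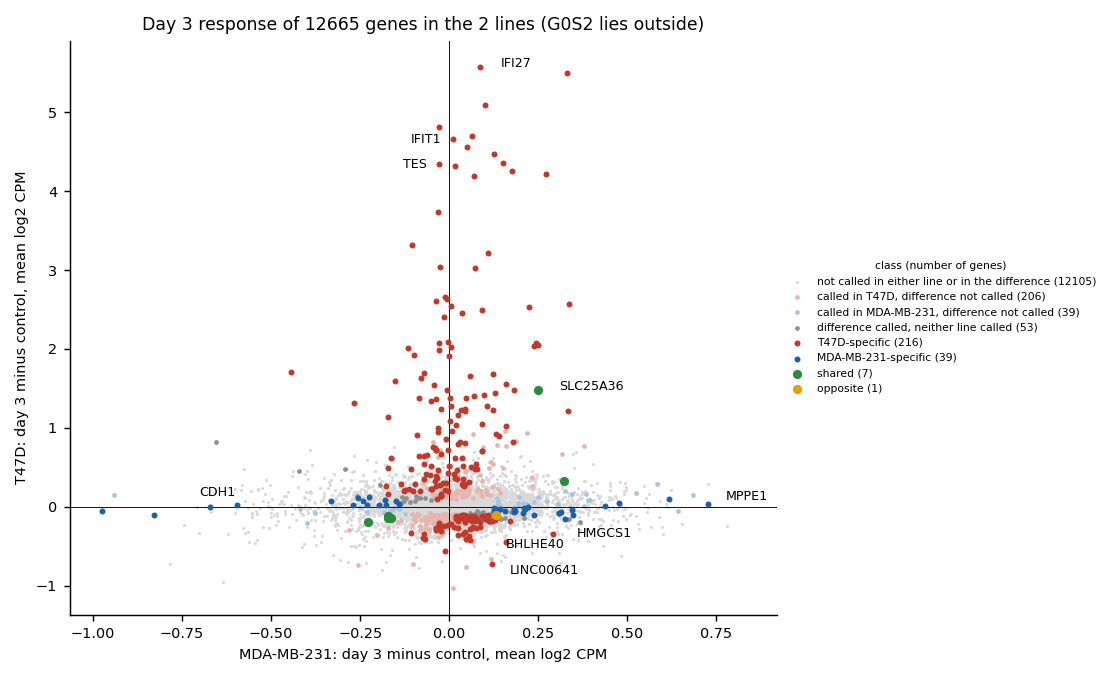
Each point is 1 of 12665 genes, with its day 3 change in MDA-MB-231 on the x axis and in T47D on the y axis (mean log2 CPM at day 3 minus control, 3 libraries a group); colours mark the classes, and G0S2 (10.67 in T47D, 5.87 in MDA-MB-231) lies outside the axes. The T47D-specific rises form a column near 0 on the x axis, and IFI27 reaches 5.58 in T47D at 0.09 in MDA-MB-231.

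G0S2 was induced in both lines, from different starting levels. Control libraries of T47D held 0.966, 0.343 and 0.442 CPM and those at day 3 883, 855 and 844 CPM. In MDA-MB-231 the controls held 25.6, 25.1 and 25.2 CPM and the day 3 libraries 1484, 1506 and 1429.6 CPM. Control and day 3 libraries did not overlap in either line, but the T47D level in controls is imprecise, as those values rest on 23 reads on average. The log2 change was 10.67 in T47D and 5.87 in MDA-MB-231, and the line difference 4.81 ± 0.38 (SE; adjusted p = 3.46e-06). The larger fold in T47D therefore went with a lower level at day 3, on tables normalized separately. Reads of the introduced gene and of the cell's own gene cannot be told apart in these counts.

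The line difference was largest in interferon-stimulated genes, most of which rose in T47D, with little change in MDA-MB-231. Of 57 interferon-stimulated effectors listed for both lines, 54 rose in T47D, 0 fell and 3 were not called, whereas in MDA-MB-231 limma called 0 in either direction, with 3 higher and 0 lower at an unadjusted p under 0.05. With each line fitted alone, 1 of the 57 was called higher in MDA-MB-231, SAMD9L (0.22, against 2.54 in T47D). The line difference was called above 0 for 51 of them, against 1.41% of all genes. The median change of the list was 1.63 in T47D and 0.02 in MDA-MB-231, beside medians of 0.00 for all genes in both lines. The list was chosen with earlier results of these data known. Of the 145 T47D-specific rises, 51 were on this list, 86 were on any of the 33 lists examined, and 59 were on none.

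The promoters of 3 of these genes show the sequence most of them share, an interferon-response element core, here GAAA followed after any 2 bases by a second GAAA. Promoters are from RefSeq on GRCh38.p14, from 250 bases before to 50 after the start of the gene, and are written 5′ to 3′ on the gene's strand with matches on either strand in capitals (matches can overlap, as in ISG15). IFIT1, IFI27 and ISG15 hold 2 matches each, the nearest starting 103, 95 and 107 bases before the start site. The promoter of TES, a gene with a comparable line difference that is on none of the lists, holds no match and is shown for comparison.
IFIT1 promoter, chr10:89392373-89392672, plus strand: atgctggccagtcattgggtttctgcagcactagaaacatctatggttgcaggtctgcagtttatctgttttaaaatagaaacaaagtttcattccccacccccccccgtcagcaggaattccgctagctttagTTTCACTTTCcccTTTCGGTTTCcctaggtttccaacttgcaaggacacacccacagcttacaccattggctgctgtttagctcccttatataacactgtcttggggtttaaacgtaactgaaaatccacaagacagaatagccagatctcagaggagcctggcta
IFI27 promoter, chr14:94110486-94110785, plus strand: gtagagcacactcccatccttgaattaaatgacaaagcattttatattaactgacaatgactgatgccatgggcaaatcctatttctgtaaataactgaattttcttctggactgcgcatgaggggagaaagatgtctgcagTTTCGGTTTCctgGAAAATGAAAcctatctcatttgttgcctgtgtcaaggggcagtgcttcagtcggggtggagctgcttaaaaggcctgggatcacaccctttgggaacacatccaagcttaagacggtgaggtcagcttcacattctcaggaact
ISG15 promoter, chr1:1013247-1013546, plus strand: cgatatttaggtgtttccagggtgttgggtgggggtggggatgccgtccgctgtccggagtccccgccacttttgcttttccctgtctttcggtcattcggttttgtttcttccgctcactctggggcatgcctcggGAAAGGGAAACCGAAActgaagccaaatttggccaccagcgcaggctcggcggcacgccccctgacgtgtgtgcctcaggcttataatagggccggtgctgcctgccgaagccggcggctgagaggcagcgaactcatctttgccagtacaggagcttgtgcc
TES promoter, chr7:116210289-116210588, plus strand: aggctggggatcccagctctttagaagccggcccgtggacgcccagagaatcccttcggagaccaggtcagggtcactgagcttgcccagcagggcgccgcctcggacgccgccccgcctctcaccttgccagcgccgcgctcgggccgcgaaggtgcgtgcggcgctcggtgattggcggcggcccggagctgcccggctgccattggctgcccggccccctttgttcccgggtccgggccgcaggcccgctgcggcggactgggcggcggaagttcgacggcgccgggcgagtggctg

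The core was found in 42.7% of the promoters of all T47D-specific rises (47 of 110 with a promoter in the table). It was in 65.9% of those on the effector list (27 of 41) and in 23.3% of those on no list (10 of 43). Over all genes tested it was in 2.80% (274 of 9779) and over all 35116 promoters of the table in 3.57%. T47D-specific falls held it in 2 of 56 promoters, MDA-MB-231-specific rises in 0 of 21 and MDA-MB-231-specific falls in 0 of 10. A gamma-activated site, TTCNNNGAA, was in 17.3% of the promoters of T47D-specific rises and 6.37% of those of all genes tested. A match is a description of the letters in this window, not evidence of binding.

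IFIT1, which encodes a protein that binds viral RNA caps, had 6.79, 6.14 and 6.83 CPM in T47D controls and 171, 164 and 165 CPM at day 3. In MDA-MB-231 it had 45.3, 46.8 and 47.1 CPM in controls and 45.0, 49.3 and 46.0 CPM at day 3. The T47D groups did not overlap, all 3 day 3 libraries of T47D lay above every MDA-MB-231 library, and the MDA-MB-231 groups overlapped. The resulting line difference was 4.65 ± 0.075 (SE; adjusted p = 9.98e-21). IFI27, an interferon-induced mitochondrial and membrane protein, had the largest line difference of all in the fit over 18 libraries: T47D went from 0.426, 0.303 and 0.617 CPM to 21.1, 20.2 and 20.3 CPM. MDA-MB-231 held 12.4, 12.2 and 11.5 CPM in controls and 13.02, 12.97 and 12.3 CPM at day 3, which overlapped. Its line difference was 5.49 ± 0.22 (SE; adjusted p = 4.7e-13). The T47D controls of IFI27 rest on 16, 12 and 22 reads, and its line difference ran from 3.82 to 5.75 over the alternatives. That of IFIT1 ran from 4.46 to 4.69, so the top rank of IFI27 is not firm.

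ISG15, a ubiquitin-like protein attached to other proteins, had 0.673, 0.402 and 0.667 CPM in T47D controls and 12.7, 12.3 and 12.6 CPM at day 3. MDA-MB-231 had 11.01, 11.2 and 9.52 CPM and 11.7, 12.9 and 10.04 CPM. T47D thus started far below MDA-MB-231 and reached its range at day 3. MX1, a GTPase that blocks viral ribonucleoproteins, showed the other arrangement, with T47D controls already above MDA-MB-231: 21.3, 21.9 and 20.4 CPM in T47D controls, 388, 378 and 401 CPM at day 3. MDA-MB-231 had 8.35, 8.14 and 8.81 CPM in controls and 8.75, 8.68 and 9.14 CPM at day 3. The groups of T47D did not overlap for either gene, those of MDA-MB-231 overlapped for both, and the line differences were 4.34 ± 0.3 (SE; adjusted p = 7.44e-09) and 4.13 ± 0.071 (SE; adjusted p = 1.32e-20). Among other RNA-binding and antiviral effectors, the line difference was 4.64 for OAS2 and 4.50 for OASL (2'-5'-oligoadenylate synthetase family), 4.31 for IFIT3, 3.77 for IFIT2, 4.08 for IFI6 and 3.11 for DDX60, a helicase of RNA sensing. The change in MDA-MB-231 lay between -0.03 and 0.18 in these 6 genes. Members of the IFIT and OAS families resemble each other, and how the counting treated reads they share is not given in the sources used here.

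Starting levels of these genes were mostly lower in T47D. Control means were higher in MDA-MB-231 for 47 of the 57 effectors, by a median of 1.28 on the log2 scale over the 57 (tables normalized separately). At day 3, T47D exceeded the MDA-MB-231 control mean in 33 of the 57. At day 15, in a comparison that shares the control libraries, the median change of the list was 0.77 in T47D and -0.03 in MDA-MB-231. The T47D value was lower than at day 3 in 54 of 57, against 6390 of all 12666 genes.

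**Figure D2:**
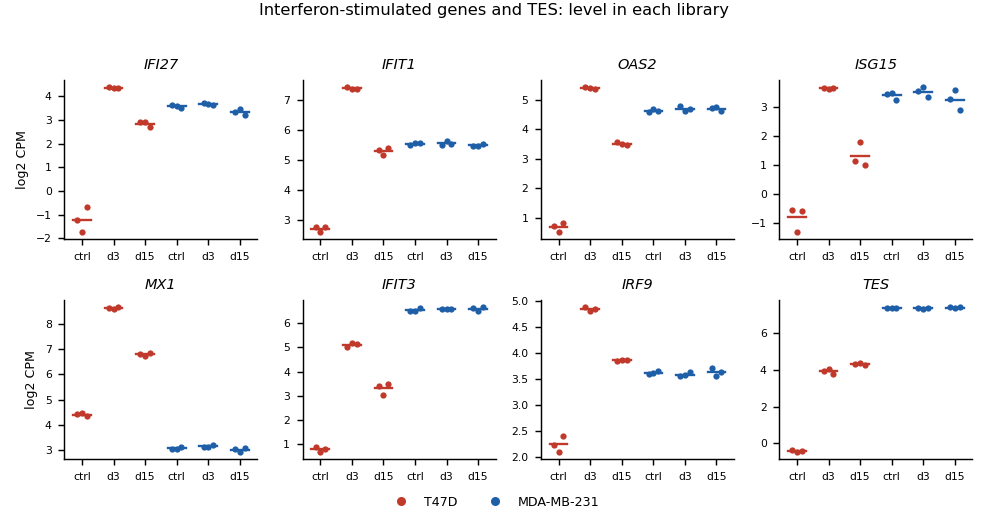
Deposited log2 CPM of 8 genes in each of the 18 libraries (points; bars are group means of 3), for control (ctrl), day 3 (d3) and day 15 (d15) of each line. T47D is higher at day 3 in all 8 panels and lower again at day 15 in 7, while TES goes from a change of 4.34 to 4.73. The day 3 changes of MDA-MB-231 lie between -0.04 and 0.12.

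Genes that sense RNA and relay interferon signals moved in part. Of 25 listed for both lines, 12 rose and 2 fell in T47D (against 1.82% and 1.57% of all genes) and 1 rose in MDA-MB-231 (against 0.426%). The line difference was called above 0 for 12 and below 0 for 1 (against 1.41% and 1.05%). IRF9, the DNA-binding subunit of the complex that type I interferon receptors activate, had 4.68, 4.26 and 5.25 CPM in T47D controls and 29.3, 28.1 and 28.7 CPM at day 3. MDA-MB-231 had 12.1, 12.2 and 12.6 CPM and 11.7, 11.9 and 12.4 CPM. Only the T47D groups were separate, and the line difference was 2.64 ± 0.095 (SE; adjusted p = 7.2e-15).

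The sensors moved with them: the line difference was 2.02 for DDX58, 1.40 for IFIH1 and 1.83 for DHX58, which encodes a regulator of both, and 2.09 for IRF7 (adjusted p = 2.05e-06 or lower in each). The receptor chains, by contrast, had small changes: IFNAR1 changed by -0.06 in T47D and 0.03 in MDA-MB-231, and IFNAR2 by -0.01 and -0.04, with no call. JAK1, a kinase bound to the receptor, fell in T47D (-0.13, adjusted p = 0.00418) and had the called line difference below 0, -0.16 ± 0.036 (SE; adjusted p = 0.0148). The genes for interferon beta (IFNB1) and interferon lambda (IFNL1) and for the chemokines CXCL10 and CXCL11 were not listed for either line, and have no value here.

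Antigen presentation genes rose in T47D by smaller amounts. Of 20 genes of MHC class I and antigen processing listed for both lines, 16 rose in T47D (against 1.82% of all genes) and 0 fell. In MDA-MB-231 0 were called (1 at an unadjusted p under 0.05), and the line difference was called above 0 for 15 (against 1.41%). PSMB9, a subunit of the immunoproteasome, had 1.64, 1.41 and 1.92 CPM in T47D controls and 3.54, 3.36 and 3.98 CPM at day 3, against 8.24, 8.36 and 7.91 CPM and 7.03, 7.28 and 7.45 CPM in MDA-MB-231. The T47D libraries rose without overlap, whereas every MDA-MB-231 day 3 library lay below its controls, with no call in that line (adjusted p = 0.672). This gave a line difference of 1.31 ± 0.15 (SE; adjusted p = 6.34e-06). NLRC5, a transactivator of MHC class I genes, had a line difference of 1.20 ± 0.18 (SE; adjusted p = 0.000262), PSMB8 of 0.69 ± 0.073 (SE; adjusted p = 9.39e-07) and HLA-C of 0.51 ± 0.069 (SE; adjusted p = 4.48e-05). TAP1, a peptide transporter, had 0.44 and B2M, the light chain of MHC class I, 0.25. HLA genes resemble each other and are uncertain in counts of short reads.

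Markers of other cells and of RNA quality were looked at beside these rises. Of 16 leukocyte markers 4 were listed for T47D, and PTPRC, CD3E, LYZ and CSF1R were not; their summed level was 8.05 to 9.29 CPM in T47D controls and 10.5 to 11.5 CPM at day 3. CD74, the MHC class II invariant chain, was the called member (T47D 0.41, MDA-MB-231 -0.07, line difference 0.48 ± 0.075 (SE; adjusted p = 0.000316)). In MDA-MB-231, 6 leukocyte markers were listed, with sums of 167 to 174 CPM in controls and 164 to 170.2 CPM at day 3. Of 10 fibroblast markers 3 were listed for T47D (52.0 to 58.7 CPM in controls, 49.2 to 51.7 CPM at day 3) and of 9 endothelial markers 1 (2.84 to 3.89 CPM, then 2.58 to 3.07 CPM). Replication-dependent histones, whose transcripts lack poly(A) tails and so vary with RNA quality and selection, summed to 339 to 349 CPM in T47D controls and 381 to 387 CPM at day 3. In MDA-MB-231 they summed to 98.6 to 104 CPM and 96.2 to 101 CPM, and 2 of 9 had a called line difference above 0 (H2BC5 and H1-2, the latter not called when any of 4 single libraries was left out, with adjusted p up to 0.069). The part of other cells or of RNA quality in the interferon result was not tested.

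NF-kB targets and cytokines had called changes in both lines, in different members in the fit over 18 libraries. Of 17 listed for both, 3 rose and 1 fell in T47D (against 1.82% and 1.57% of all genes). In MDA-MB-231 0 rose and 3 fell, against 0.253% of all genes that fell. With the line fitted alone 6 fell, against 85 of all 12666 genes. The line difference was called above 0 for 6 and below 0 for 1 (against 1.41% and 1.05%). TNFSF10, which encodes the death ligand TRAIL, had 11.7, 12.7 and 12.8 CPM in T47D controls and 17.9, 16.0 and 18.2 CPM at day 3. The MDA-MB-231 libraries held 26.8, 26.3 and 28.7 CPM and 23.9, 23.7 and 25.0 CPM. T47D went up without overlap, MDA-MB-231 went down without overlap but without a call, and the line difference was 0.66 ± 0.12 (SE; adjusted p = 0.00233). NFKBIA, the inhibitor of NF-kB that NF-kB itself induces, fell in MDA-MB-231 from 46.6, 48.2 and 47.3 CPM to 39.8, 40.2 and 41.7 CPM. In T47D it had 43.2, 43.9 and 42.3 CPM and 44.9, 49.2 and 46.9 CPM, higher in all 3 day 3 libraries without a call (adjusted p = 0.0761), and the line difference was 0.35 ± 0.052 (SE; adjusted p = 0.000183). Over 12 libraries alone T47D was called too, so the gene moved opposite ways there (adjusted p = 0.0482 in T47D). TNFAIP3, another feedback inhibitor, had a line difference of 0.76 ± 0.16 (SE; adjusted p = 0.0105) with a rise in T47D of 0.72. BIRC3 rose in T47D over 18 libraries, with a called line difference (limma, adjusted p = 0.000691). Over 12 libraries it was called opposite ways, like NFKBIA (adjusted p = 0.000171 in T47D and 0.0265 in MDA-MB-231). With each line fitted alone, BIRC3 was called in MDA-MB-231 and not in T47D (adjusted p = 0.0738). CCL28, an epithelial chemokine, was the member below 0, with a change of -0.42 in T47D (31.3, 32.0 and 30.1 CPM to 23.1, 24.1 and 22.6 CPM) and 0.06 in MDA-MB-231.

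Among T47D rises on none of the lists, TES matched the interferon-stimulated genes in size. TES, which encodes a focal adhesion LIM protein, had 0.786, 0.719 and 0.742 CPM in T47D controls, 15.5, 16.4 and 13.8 CPM at day 3 and 19.8, 20.6 and 19.1 CPM at day 15. MDA-MB-231 held 167, 168 and 167 CPM in controls and 164, 161 and 167 CPM at day 3. T47D rose from a very low level with no overlap and stayed below MDA-MB-231, where the groups overlapped. Its line difference was 4.37 ± 0.073 (SE; adjusted p = 1.12e-20). Chosen after their values were seen, PCDH20, a protocadherin, had a line difference of 2.13 ± 0.19 (SE; adjusted p = 5.3e-08), HSD17B11, a lipid-droplet-associated dehydrogenase, of 2.02 ± 0.13 (SE; adjusted p = 2.96e-10) and ADAM9, a membrane metalloprotease, of 0.95 ± 0.041 (SE; adjusted p = 2.41e-13). APOL1 (2.42), BATF2 (2.24) and ETV7 (2.16), also on none of the lists, had larger line differences than PCDH20. The lists are not complete, so absence from them does not set a gene apart from the interferon-stimulated genes.

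TES and HSD17B11 are abundant in MDA-MB-231 and nearly absent from T47D controls, with control means of 7.38 and 7.30 log2 CPM in MDA-MB-231 and -0.42 and -2.16 in T47D. Of all 28 genes with a control mean over 6 in MDA-MB-231 and under 0 in T47D, 4 rose in T47D (TES, HSD17B11, IFI16 and LAPTM5) and 2 fell. Over all genes, 1.82% rose and 1.57% fell in T47D. The median change of the 28 was -0.01, and VIM and ZEB1 were not listed for T47D. The cause of these rises was not tested. At day 15 the change in T47D was 4.73 for TES, 3.57 for HSD17B11 and 1.01 for ADAM9, against 0.43 for PCDH20. Over the 145 T47D-specific rises the median change was 0.95 at day 3 and 0.52 at day 15. The day 15 value was below that of day 3 in 128, against 6390 of all 12666 genes. These 145 genes were chosen for a day 3 rise, which by itself favours a lower value at day 15.

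The 71 T47D-specific falls were smaller than the rises: they ran from -0.73 to -0.10, with a median of -0.18 and none past 2-fold, and the median of the same genes in MDA-MB-231 was 0.05. LINC00641, a long noncoding RNA, had 5.04, 4.24 and 4.6 CPM in T47D controls and 2.56, 2.98 and 2.8 CPM at day 3, and 8.31, 7.44 and 8.71 CPM and 7.69, 9.64 and 9.3 CPM in MDA-MB-231. It fell in T47D without overlap, while the MDA-MB-231 groups overlapped, and its line difference of -0.85 ± 0.14 (SE; adjusted p = 0.00049) was the lowest of those called. FBXO32, a ubiquitin ligase subunit known as atrogin-1, fell from 65.7, 66.5 and 65.7 CPM to 47.3, 48.0 and 49.2 CPM in T47D. In MDA-MB-231 it had 19.1, 18.2 and 17.97 CPM and 20.6, 20.6 and 20.4 CPM, separate in the other direction without a call (adjusted p = 0.0858), and the line difference was -0.61 ± 0.057 (SE; adjusted p = 1.57e-07). GPNMB, a transmembrane glycoprotein of lysosomes and melanosomes, had the same pattern: 54.5, 54.7 and 52.1 CPM to 44.0, 41.1 and 41.3 CPM in T47D and 2.88, 2.46 and 2.82 CPM to 3.32, 3.42 and 3.24 CPM in MDA-MB-231, a line difference of -0.64 ± 0.097 (SE; adjusted p = 0.000188). Fitted over the 12 control and day 3 libraries alone, both were called in MDA-MB-231 too, and so moved opposite ways.

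KITLG, the ligand of the receptor KIT, fell in T47D from 99.4, 91.4 and 88.1 CPM to 69.8, 71.8 and 67.9 CPM and held 32.4, 31.9 and 35.5 CPM at day 15. In MDA-MB-231 the controls (36.5, 36.2 and 38.5 CPM) overlapped with day 3 (35.6, 33.9 and 36.5 CPM), and the line difference was -0.34 ± 0.068 (SE; adjusted p = 0.00426). ENPP1, an ectoenzyme that degrades extracellular ATP and cyclic GMP-AMP, had a line difference of -0.46 ± 0.088 (SE; adjusted p = 0.00292) and went from -0.41 at day 3 to -0.79 at day 15 in T47D. Phosphatase and feedback genes of the MAPK pathway, 27 in both tables, had 5 falls (against 1.57% of all genes) and 0 rises in T47D. MDA-MB-231 had no call (3 higher and 3 lower at an unadjusted p under 0.05). With each line fitted alone, 2 fell in T47D and 1, DUSP1, fell in MDA-MB-231, against 75 and 85 of all 12666 genes. The line difference was called below 0 for 3 and above 0 for 1 (against 1.05% and 1.41% of all genes). DUSP4, a phosphatase of MAP kinases, had a line difference of -0.32 ± 0.05 (SE; adjusted p = 0.00025) and PHLDA1, an early response gene, of -0.21 ± 0.041 (SE; adjusted p = 0.00426). PMEPA1, a TGF-beta target that feeds back on the pathway, had -0.23 ± 0.047 (SE; adjusted p = 0.00506), and SERPINA1, on the list of estrogen-induced genes, -0.34 ± 0.07 (SE; adjusted p = 0.00676). Over the 71 falls, the median at day 15 was -0.22 and 66 were called lower at day 15 as well, on the same controls. Choosing genes by a day 3 fall against those controls favours such a count. The share of all genes called lower at day 15 is not given here, so the count is given no reading.

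Stress and amino acid genes driven by ATF4 fell in part in T47D: 5 of 31 fell (against 1.57% of all genes) and 0 rose there, MDA-MB-231 had 0 calls (1 gene up and 1 down at an unadjusted p under 0.05), and the line difference was called below 0 for 3 (against 1.05%). Fitted over 12 libraries, these were 13 falls and 10 line differences, against 479 and 349 of all 12666 genes. With each line fitted alone they were 3 and 3, against 75 and 131 of all genes. The list's median was -0.09 in T47D and 0.02 in MDA-MB-231. SLC7A11, the cystine transporter, had 48.0, 45.8 and 44.1 CPM in T47D controls and 37.3, 40.0 and 37.3 CPM at day 3. In MDA-MB-231 there were 113, 114 and 117 CPM and 120.1, 119.9 and 120.3 CPM. It fell in T47D and lay higher at day 3 in MDA-MB-231 without overlap or call, and the line difference was -0.33 ± 0.055 (SE; adjusted p = 0.000602). DDIT4, an inhibitor of mTORC1, had a line difference of -0.32 ± 0.067 (SE; adjusted p = 0.00801). Of 29 lysosome genes, 3 fell in T47D (TPP1, NPC2 and LAMP2, against 1.57% of all genes) and the same 3 had called line differences of -0.23, -0.19 and -0.15 (against 1.05%), but the T47D call of TPP1 and both calls of NPC2 and LAMP2 were lost under several settings (adjusted p for T47D up to 0.143, 0.15 and 0.179).

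Lipid synthesis genes were the lists with the most rises in MDA-MB-231. Of 32 genes of cholesterol synthesis and uptake listed for both lines, 6 rose (against 0.426% of all genes) and 0 fell in MDA-MB-231. In T47D 0 were called (1 higher and 6 lower at an unadjusted p under 0.05). The line difference was called below 0 for 6, against 1.05% of all genes. In the fit over 12 libraries, 15 rose in MDA-MB-231, 5 fell in T47D and 14 had a called line difference below 0. Over all 12666 genes, that fit called 184, 479 and 349 in that order. With each line fitted alone, 12 rose in MDA-MB-231, 0 were called in T47D and 6 had a called line difference below 0. Of all 12666 genes, 109 rose in MDA-MB-231 and 131 had a line difference below 0 with the lines fitted alone. The median was 0.10 in MDA-MB-231 and -0.02 in T47D, and the line difference was below 0 in 29 of the 32, called or not. Of 19 genes of fatty acid synthesis and desaturation, 4 rose in MDA-MB-231 (against 0.426% of all genes) and 1 rose and 1 fell in T47D (against 1.82% and 1.57%). The line difference was called below 0 for 2 (against 1.05%). With each line fitted alone, 7 rose in MDA-MB-231 and 0 were called in T47D. The largest rise in MDA-MB-231 on either list was 0.35 on the log2 scale (SCD).

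HMGCS1, which makes HMG-CoA at the entry of the mevalonate pathway, had 103, 104 and 109 CPM in MDA-MB-231 controls and 122, 126 and 124 CPM at day 3. In T47D it had 175, 166 and 165 CPM and 158, 156 and 155 CPM. The groups were separate in both lines, upward in MDA-MB-231 and downward in T47D, where the change was not called (adjusted p = 0.0704). That is a line difference of -0.35 ± 0.045 (SE; adjusted p = 3e-05). In the fit over 12 libraries HMGCS1 was called in both lines (adjusted p = 0.0142 in T47D), in opposite directions. Further along the pathway, IDI1 (isopentenyl diphosphate isomerase) had a line difference of -0.25 ± 0.044 (SE; adjusted p = 0.00111), FDPS (farnesyl diphosphate synthase) of -0.22 ± 0.043 (SE; adjusted p = 0.00334) and FDFT1 (squalene synthase) of -0.14 ± 0.029 (SE; adjusted p = 0.00535). INSIG1, a sterol-regulated brake on SREBP processing, rose from 294, 296 and 291 CPM to 369.6, 362 and 358 CPM in MDA-MB-231. T47D had 107, 108 and 103 CPM in controls and 103, 100.1 and 99.5 CPM at day 3, slightly lower with no overlap and no call, and the line difference was -0.38 ± 0.039 (SE; adjusted p = 6.19e-07).

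SCD, the desaturase that makes monounsaturated fatty acids, gave the clearest line difference of the group. MDA-MB-231 had 1433, 1452 and 1457 CPM in controls and 1839, 1837 and 1841 CPM at day 3. T47D had 3186, 3195 and 3199 CPM in controls and 3109.8, 3109.5 and 3110.0 CPM at day 3. The libraries were separate in both lines, by 0.35 in MDA-MB-231 and -0.04 in T47D (adjusted p = 0.364, not called), and the line difference was -0.38 ± 0.025 (SE; adjusted p = 3.62e-10). LPIN1, a phosphatidate phosphatase of triglyceride synthesis, rose in MDA-MB-231 from 93.6, 97.3 and 97.7 CPM to 118, 119 and 121 CPM, with overlapping groups in T47D and a line difference of -0.38 ± 0.068 (SE; adjusted p = 0.00159). ACSS2, which makes acetyl-CoA from acetate, had a line difference of -0.22 ± 0.059 (SE; adjusted p = 0.0447), which was not called in 15 of 26 alternatives (adjusted p up to 0.126). At day 15, on the same controls, the change in MDA-MB-231 was -0.01 for SCD, 0.07 for INSIG1, 0.14 for HMGCS1 and 0.14 for LPIN1. The lipase PNPLA2, which G0S2 binds, and the lipid droplet protein PLIN2 were not called in either line: their line differences were 0.07 ± 0.099 (SE; adjusted p = 0.891) and 0.09 ± 0.051 (SE; adjusted p = 0.551). A sterol element, TCACNCCAC, was in 0 of the 5 promoters found for the 6 cholesterol genes that rose, and in 1.07% of those of all genes tested. With so few promoters and so low a share, a count of 0 was likely beforehand and is given no reading.

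**Figure D3:**
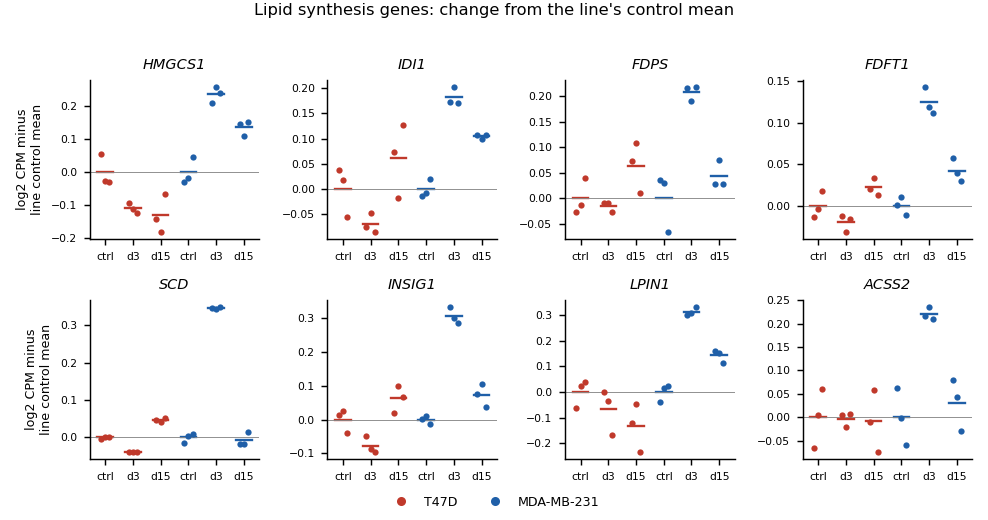
Change of 8 lipid synthesis genes from the control mean of the same line, in log2 CPM, for each of the 18 libraries (points; bars are group means of 3). The MDA-MB-231 day 3 mean is the highest of the day 3 and day 15 means in each panel, with SCD at 0.35, while T47D day 3 means lie at or below 0, down to -0.11.

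Other MDA-MB-231-specific rises were of single genes of varied function. MPPE1, a phosphoesterase that remodels GPI anchors, had 1.74, 1.93 and 2.0 CPM in MDA-MB-231 controls and 3.03, 3.17 and 3.19 CPM at day 3, and 11.6, 12.2 and 11.5 CPM and 12.3, 11.9 and 11.8 CPM in T47D. Groups were separate in MDA-MB-231 and overlapped in T47D, and the line difference was -0.69 ± 0.12 (SE; adjusted p = 0.000692). C21orf91 rose from 19.5, 17.7 and 19.8 CPM to 29.3, 30.1 and 28.2 CPM in MDA-MB-231, with a line difference of -0.52 ± 0.086 (SE; adjusted p = 0.000686). ZNF641, a zinc finger protein, and TMEM154, a transmembrane protein, had line differences of -0.43 ± 0.08 (SE; adjusted p = 0.00252) and -0.48 ± 0.075 (SE; adjusted p = 0.000328). GREB1, an estrogen receptor target and cofactor, had 1.58, 1.6 and 1.5 CPM in MDA-MB-231 controls and 2.22, 2.15 and 2.15 CPM at day 3, beside 487, 496 and 504 CPM and 507, 511 and 515 CPM in T47D. Its line difference of -0.43 ± 0.057 (SE; adjusted p = 3e-05) rests on a low level in MDA-MB-231 and was not called with voom weights or with each line fitted alone (adjusted p up to 0.122).

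MDA-MB-231-specific falls included a cytokine and an epithelial adhesion gene. TNFSF15, a TNF-family cytokine also known as TL1A, had 20.6, 22.7 and 23.5 CPM in MDA-MB-231 controls, 12.8, 12.4 and 12.3 CPM at day 3 and 9.78, 9.61 and 11.2 CPM at day 15. In T47D it had 4.72, 5.25 and 4.75 CPM in controls and 4.63, 4.71 and 4.34 CPM at day 3. Both lines had day 3 libraries below all controls, with a call in MDA-MB-231 alone, and the line difference was 0.73 ± 0.11 (SE; adjusted p = 0.000281). CDH1, the epithelial adhesion protein E-cadherin, had 1.58, 1.67 and 1.52 CPM in MDA-MB-231 controls and 1.17, 1.02 and 0.832 CPM at day 3, and 946, 946 and 947 CPM and 944, 931 and 951 CPM in T47D. The fall in MDA-MB-231 is from a low level, and the line difference, 0.66 ± 0.11 (SE; adjusted p = 0.000753), was not called with each line fitted alone (adjusted p = 0.0585). PPME1, the methylesterase of phosphatase PP2A, had a line difference of 0.40 ± 0.04 (SE; adjusted p = 3.77e-07). Over the 15 falls, 12 were called lower at day 15 as well, and of the 24 rises 7 were called higher, on the same controls. These counts too are favoured by the choice of genes at day 3 and are given no reading.

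Beside G0S2, 6 genes moved the same way in both lines. SLC25A36, a mitochondrial carrier of pyrimidine nucleotides, had 54.3, 49.9 and 49.3 CPM in T47D controls and 143, 145 and 139 CPM at day 3. In MDA-MB-231 it had 59.6, 57.6 and 60.5 CPM and 70.6, 70.8 and 69.4 CPM. It rose without overlap in both lines, by 1.48 and 0.25, and its line difference was 1.23 ± 0.052 (SE; adjusted p = 1.64e-13). CENPT, a kinetochore protein, rose by 0.33 in T47D (41.0, 41.8 and 46.6 CPM to 52.6, 54.5 and 55.5 CPM). In MDA-MB-231 it rose by 0.32 (22.5, 21.8 and 21.7 CPM to 27.6, 28.3 and 26.6 CPM). The line difference of 0.01 had an interval, 2 SE either way, of -0.13 to 0.14. THBS1, the matrix glycoprotein thrombospondin 1, fell by similar amounts at very different levels: 322, 321 and 329 CPM to 279, 283 and 286 CPM in T47D, and 2447, 2487 and 2491 CPM to 2100.4, 2113 and 2126 CPM in MDA-MB-231. Its line difference was 0.03, with an interval of -0.03 to 0.09.

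IGFBP4, an insulin-like growth factor binding protein, changed by -0.12 in T47D and -0.17 in MDA-MB-231, TOMM34, a cochaperone of mitochondrial import, by -0.14 and -0.16, and ARG2, the mitochondrial arginase, by -0.15 and -0.17. Fitting each line alone ended the call in at least 1 line for these 3 genes. With 1 library left out at a time, IGFBP4, TOMM34 and ARG2 were called in both lines in 12, 8 and 4 of 18 fits, and IGFBP4 lost its T47D call without any 1 of the T47D control or day 3 libraries (over the 26 alternatives, adjusted p up to 0.187 in T47D for IGFBP4, 0.134 in MDA-MB-231 for TOMM34 and 0.235 in MDA-MB-231 for ARG2). They count as shared in 17, 14 and 10 of 26 alternatives, against all 26 for SLC25A36, CENPT and THBS1.

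BHLHE40, a circadian and hypoxia-induced transcriptional repressor, was the gene called opposite ways. In T47D it had 214, 223 and 222 CPM in controls and 201, 205 and 208 CPM at day 3. In MDA-MB-231 it had 72.0, 70.7 and 69.2 CPM and 77.0, 78.1 and 76.8 CPM. The groups were separate in both lines, downward in T47D (-0.10, adjusted p = 0.0364) and upward in MDA-MB-231 (0.13, adjusted p = 0.0217). The line difference, -0.23 ± 0.038 (SE; adjusted p = 0.000505), was called in all 26 alternatives, but both lines were called in 13 of them. Without T47D day 3 replicate 1, 2 or 3 or T47D control replicate 2 or 3, or without MDA-MB-231 day 3 replicate 1, 2 or 3 or control replicate 2 or 3, at least 1 line lost its call (adjusted p up to 0.182 in T47D and 0.116 in MDA-MB-231).

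**Figure D4:**
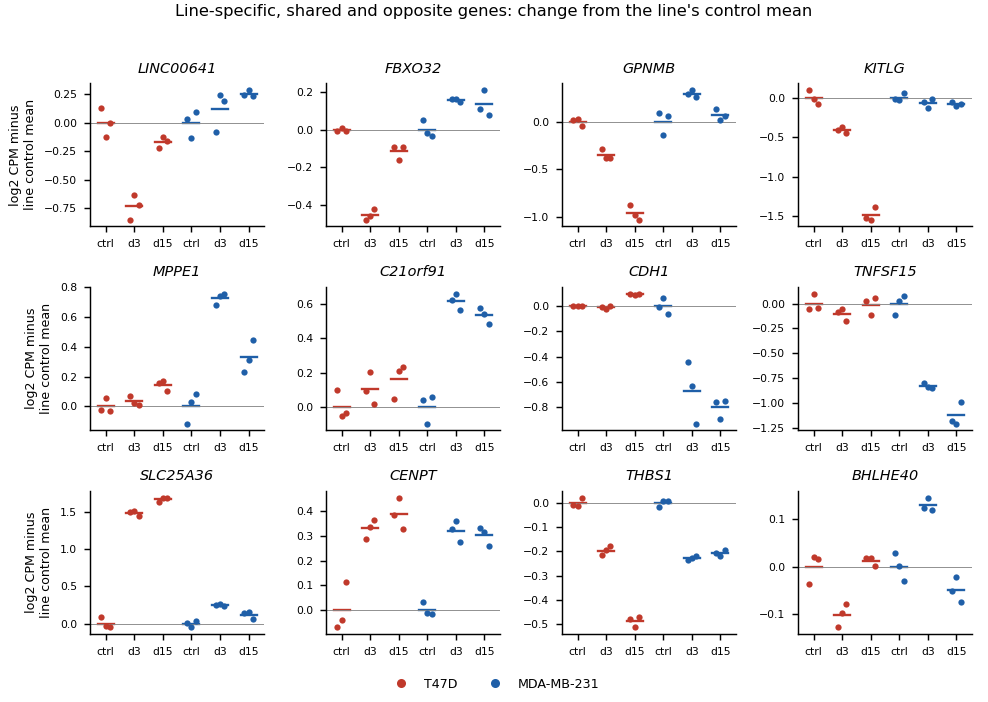
Change of 12 genes from the control mean of the same line, in log2 CPM, for each of the 18 libraries (points; bars are group means of 3). LINC00641, FBXO32, GPNMB and KITLG fall in T47D, MPPE1 and C21orf91 rise and CDH1 and TNFSF15 fall in MDA-MB-231, SLC25A36 and CENPT rise and THBS1 falls in both, and BHLHE40 separates in opposite directions at day 3 (-0.10 and 0.13).

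Over all genes, a line difference was called above 0 for 1.41% and below 0 for 1.05%, and counts near that share are given no reading. Several large housekeeping groups showed no called line difference, which is near that share: 0 of 68 cytosolic ribosomal proteins, 0 of 38 mitochondrial ribosomal proteins, 0 of 40 DNA replication genes, 0 of 36 mitosis genes and 0 of 30 ribosome biogenesis genes. At an unadjusted p under 0.05 in the same limma fit, the line difference counted 2, 1, 2, 2 and 2 of them in that order, and over 12 libraries 2, 1, 0, 2 and 1 were called. Of all 12666 genes, the fit over 12 libraries called 291 above 0 and 349 below. Over the 311 called line differences, 125 were of genes on any of the 33 lists. Of 42 nuclear-encoded respiratory chain genes, UQCRFS1 (the Rieske protein of complex III) was the called member, with a line difference of 0.23 ± 0.051 (SE; adjusted p = 0.0112). A count so low is near the share over all genes. The growth genes MYC and CCND1 had line differences of 0.01 ± 0.057 (SE; adjusted p = 0.978) and 0.06 ± 0.031 (SE; adjusted p = 0.421). Luminal and epithelial genes had 4 called line differences above 0 and 1 below among 24, of which those of GATA3, KRT8, KRT18 and PRLR were lost under several alternatives (adjusted p up to 0.118, 0.0848, 0.0907 and 0.16). Hypoxia and glycolysis genes had 2 below 0 among 30, BNIP3 and BNIP3L, which were called in 10 and 9 of 26 alternatives. ESR1, PGR, TFF1 and VIM were listed for 1 line alone and have no line difference.

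**Figure D5:**
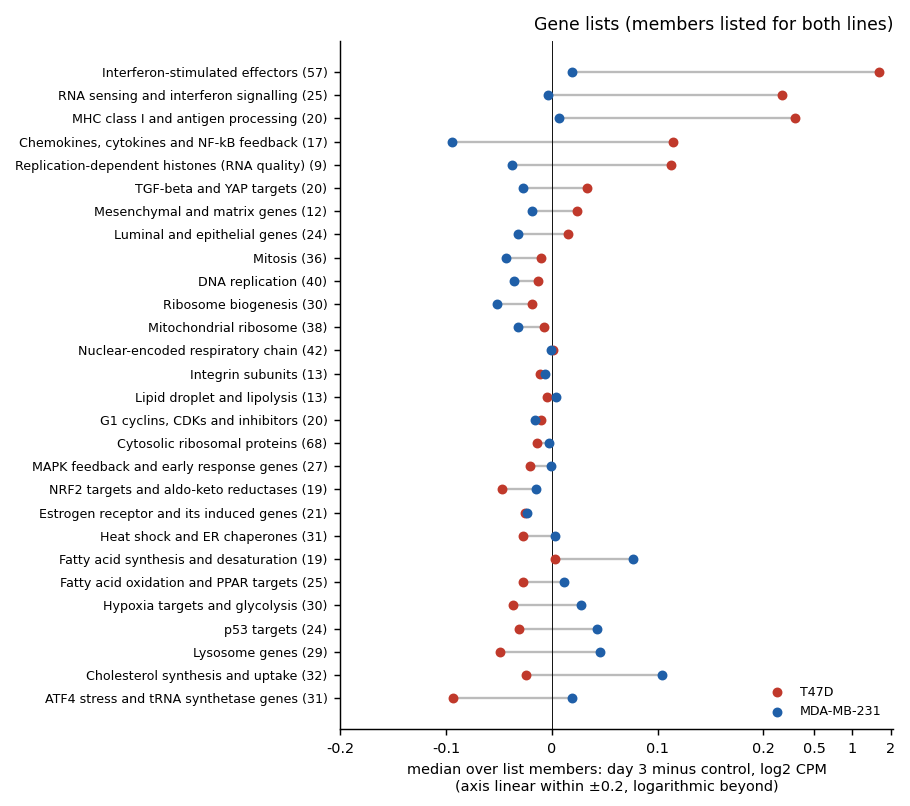
Median day 3 change over the members of each gene list, in log2 CPM, for T47D and MDA-MB-231 (number of members listed for both lines in parentheses; lists with 9 or more; the axis is linear within 0.2 of 0 and logarithmic beyond). Interferon-stimulated effectors have medians of 1.63 in T47D and 0.02 in MDA-MB-231, cholesterol synthesis genes -0.02 and 0.10, and ATF4 genes -0.09 and 0.02.

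Genes listed for 1 line alone have no line difference and were examined in fits of each table by itself, with examples chosen after their values were seen. In those fits 1.16% of 14768 T47D genes rose and 0.718% fell, and 0.895% of 14308 MDA-MB-231 genes rose and 0.874% fell. Of 2102 genes listed for T47D alone, 13 rose and 26 fell. Among the rises, CCL5, a chemokine, had 0.336, 0.343 and 0.342 CPM in controls and 3.61, 3.36 and 3.73 CPM at day 3 (3.39, adjusted p = 2.74e-09), and CMPK2, a mitochondrial nucleotide kinase induced by interferon, had 0.134, 0.264 and 0.166 CPM in controls and 1.58, 1.81 and 1.83 CPM at day 3 (3.27). Falls included PGR, the progesterone receptor (-0.13), TFF3, a secreted luminal peptide (-0.63), and PIP, a prolactin-induced protein (-0.51). Of 1642 genes listed for MDA-MB-231 alone, 8 rose and 34 fell.

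GCG, the glucagon gene, had 0.139, 0.0907 and 0.0688 CPM in controls and 2.19, 2.53 and 2.64 CPM at day 3 in MDA-MB-231 (4.68, adjusted p = 5.54e-13). Falls in MDA-MB-231 included the aldo-keto reductases AKR1C1 (-0.54), AKR1C2 (-0.61) and AKR1C3 (-0.28), whose sequences are close to each other, the long noncoding RNA UCA1 (-0.61), and the matrix genes TIMP3 (-0.19) and TGM2 (-0.19).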

How the data were processed

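RNA-seq libraries of 2 cell lines were used as the log2 CPM per gene and library that the authors deposited, 1 table a line. STAR, featureCounts, limma and build GRCh38.p13 are named in the submitters' processing notes, without roles or versions. How low genes were filtered and whether counting used strand is not given in the sources used here. Each log2 value deposited came out as whole reads, within 0.1 reads, once a pseudocount of 3 reads (scaled by library) was taken off, and the depths so recovered were 37012519 to 52380759 reads. Since the values are not counts, limma 3.58.1 (R 4.3.3) was fitted to them, with group means over all 18 libraries, trend and robust moderation, and Benjamini-Hochberg adjustment over 12666 genes. The line difference is the contrast of both changes. The tables' separate normalization cancels within each line's change. Each library counted once, as every pair within a group differed beyond sampling noise (chi-square, genes of 10 reads or more). Fits were tested on simulated data.

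Members, lists and tests were chosen with earlier results of these data known. Named genes are G0S2; the 12 largest called line differences each way (mean log2 CPM of 1 or more in each line, groups not overlapping in at least 1 line); up to 8 shared rises and falls, 12 opposite genes, and 6 genes of each line-specific class and direction by size; up to 6 members with a called line difference per list; and a fixed panel. Other genes named are stated to be chosen after their values were seen or belong to a list that the sentence describes. Not every gene under the rule is reported here. Promoters came from RefSeq on GRCh38.p14 by symbol: 9779 of 12666 genes matched. Alternatives were the 12 control and day 3 libraries, lines fitted alone, no trend or robust moderation, median centring, log2(CPM + 1), a filter on low genes, a replicate block, voom weights on recovered reads, and leaving out each library.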

Additional observations from a re-analysis of the deposited data

Results flagged for a closer look

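Each value here is a line difference on the log2 scale, with limma's adjusted p under 0.05 in the test of the difference itself. Above 0, with a larger response in T47D, were IFI27 (5.49), G0S2 (4.81), IFIT1 (4.65), OAS2 (4.64), OASL (4.50), TES (4.37), ISG15 (4.34), IFIT3 (4.31), MX1 (4.13), IFI6 (4.08), IFIT2 (3.77) and DDX60 (3.11). For all 12 the call held in all 26 alternatives. Below 0 were LINC00641 (-0.85), MPPE1 (-0.69), GPNMB (-0.64), FBXO32 (-0.61), C21orf91 (-0.52), CCL28 (-0.48), TMEM154 (-0.48) and ENPP1 (-0.46), whose calls held in all 26 as well, and GARS1-DT (-0.56), SHISA2 (-0.55), PRLR (-0.49) and ATG10 (-0.45), whose calls were lost in 12, 6, 11 and 9 of them (adjusted p up to 0.139, 0.0696, 0.16 and 0.0886). BHLHE40 (-0.23) was called opposite ways in the lines. In all, 178 genes differed above 0 and 133 below. Groups of 3 libraries were not tested for single outlying values.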

How the results depend on the processing

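Across 26 alternatives, 63 of 89 named genes with a called line difference kept it in each, 26 lost it in at least 1, and 0 changed direction. Over the 12 control and day 3 libraries alone, line differences numbered 291 above 0 and 349 below, with 26 genes called the same way, 25 opposite ways, 377 T47D-specific and 114 MDA-MB-231-specific. Genes called opposite ways (1 in the fit over 18 libraries) numbered 0 with each line fitted alone, and 2 without trend and robust moderation, with a mean log2 CPM of 1 or more required in both lines, or with voom weights on recovered reads. With the replicate number as a block within each line, 161 line differences lay above 0 and 87 below, 0 genes were opposite and 25 MDA-MB-231-specific. The numbers showed no strong pairing of the libraries: deviations of same-numbered control and day 3 libraries correlated at 0.01 to 0.108 across genes, and not every library correlated best with its own number. Correlations this weak, from groups of 3, cannot exclude pairing. Leaving out 1 library at a time gave 146 to 229 line differences above 0, 78 to 256 below, 4 to 21 genes called the same way, 0 to 12 opposite, 172 to 314 T47D-specific and 25 to 75 MDA-MB-231-specific. The highest of each came without T47D day 15 replicate 2. Other alternatives kept each count within 1.5 times. The cause was not tested. Genes with few reads, such as G0S2 in T47D controls, are the least precise in fold.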
